A study of Mus musculus with 4 samples.

Results

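The genes described here are 10 regulators of the spermatogonial stem cell: the receptor for glial cell line-derived neurotrophic factor (GDNF), made of Gfra1 and Ret, and the transcriptional regulators Etv5, Bcl6b, Lhx1, Egr4, Pou3f1, Id4, Zbtb16 and Eomes. They were taken by symbol from a table of 36088 genes, in which each of the 10 had a single gene entry. RNA had been sequenced from wild-type (WT) mouse male germ cells, sorted from fetal testes kept in culture and titled day 14. Of 4 libraries, 2 came from cultures with DMSO, the solvent, and 2 from cultures with CBR-5884, which the study describes as blocking serine metabolism and whose known target is the serine-making enzyme Phgdh. The sources used here do not give the dose, the embryonic age or how testes were divided among cultures, so the p-values below measure only the spread between these libraries. Libraries carry the number 2 or 4 in the table, which could not be tied to the replicate numbers in the labels.

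GDNF is secreted by Sertoli and peritubular cells of the testis. It binds Gfra1, which is anchored to the outer membrane, and the pair engages Ret, a receptor tyrosine kinase that signals through Src family kinases, Ras and ERK, and PI3K and AKT. In undifferentiated spermatogonia this signal sustains self-renewal and raises several transcription factors, among them Etv5, Bcl6b, Lhx1 and Pou3f1, whereas Zbtb16 is held to depend on it little. Levels are given below in TPM, in principle the abundance of a gene's transcripts relative to the library total. It is corrected for length and so can be set side by side between genes. The deposited values had been rescaled and sum to 966761 to 1002976 per library.

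All 10 genes were detected in all 4 libraries, and in none of them did CBR-5884 and DMSO differ beyond the spread between libraries by the test used. Egr4 was the most abundant at a mean of 116 TPM, followed by Zbtb16 at 101 TPM and Ret at 76.2 TPM. Etv5 (70.7 TPM), Bcl6b (67.2 TPM) and Gfra1 (64.9 TPM) came next, and the ranges of these genes over the libraries overlapped one another and, for Etv5 and Bcl6b, that of Ret. Pou3f1 at 25.7 TPM and Id4 at 23.6 TPM also had overlapping ranges. Lhx1 followed at 13.6 TPM, and Eomes stood apart at 0.779 TPM. The comparison was made with limma on log2(TPM + 1) for the 14920 genes averaging at least 1 TPM, which takes in 9 of the 10 genes and leaves out Eomes. Of these 9, 0 passed a Benjamini-Hochberg adjusted p of 0.05, as did 0 (0%) of all genes tested. At an unadjusted p under 0.05 there were 0 of the 9, against 546 genes (3.66%) overall.

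**Figure D1:**
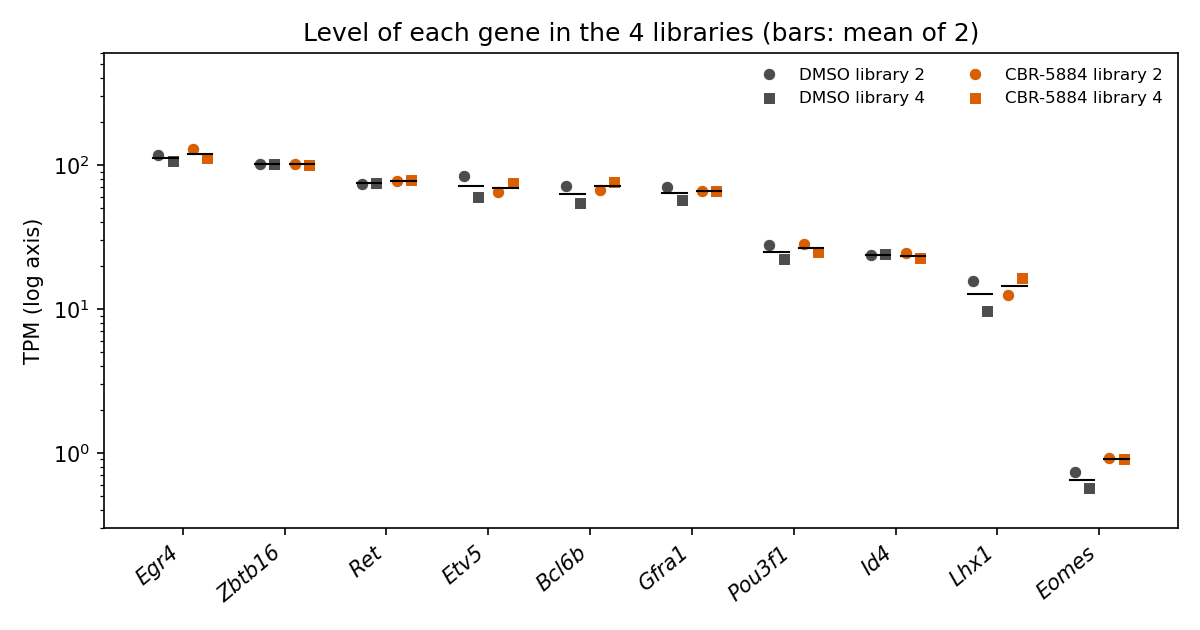
TPM of the 10 genes (log axis) in DMSO libraries (grey) and CBR-5884 libraries (orange), with circles for libraries numbered 2, squares for those numbered 4 and bars for the mean of 2. Zbtb16, Ret and Id4 lie in tight clusters, while Lhx1, Etv5 and Bcl6b scatter most within DMSO, where library 4 is the lower one.

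The 2 receptor chains were present at like levels and neither differed beyond the spread between libraries. Gfra1, the GDNF-binding chain (chromosome 19, 58235604 to 58455909, minus strand, GRCm38), had 69.9 and 57.1 TPM with DMSO (libraries 2 and 4) and 66.5 and 66.2 TPM with CBR-5884 (libraries 2 and 4). Both CBR-5884 values lay between the DMSO values, so the groups overlapped. Its log2 fold change was 0.07 (SE 0.12; 95% interval −0.21 to 0.35; limma adjusted p = 0.998), which became −0.07 when DMSO library 4 was left out and 0.21 when DMSO library 2 was. Ret, the signalling kinase (chromosome 6, 118151745 to 118197718, minus strand), had 73.6 and 75.2 TPM with DMSO and 77.1 and 79.0 TPM with CBR-5884. Both CBR-5884 libraries lay above both DMSO libraries, by a small step: the means were 74.4 ± 1.11 and 78.0 ± 1.28 TPM (SD, n = 2), a log2 fold change of 0.07 (95% interval −0.13 to 0.26; limma adjusted p = 0.998). Groups that did not overlap were common in the whole table, at 31.3% of tested genes in either direction, with CBR-5884 above for 13.6% and below for 17.7%. Among the 9 genes, 2 had groups that did not overlap, Ret above and Zbtb16 below.

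The rest of the receptor system was unevenly expressed. Among 12 other GDNF family ligands and receptors, 8 reached 1 TPM on average and were tested, and 0 passed the test or had an unadjusted p under 0.05 (limma; median log2 fold change −0.03, against −0.01 over all genes tested). Gdnf itself, the ligand, had 0.915 and 1.0 TPM with DMSO and 0.359 and 1.32 TPM with CBR-5884, near the lower limit of the comparison. Gfra2, the chain that prefers neurturin, was close to 1 TPM, at 1.15, 1.17, 0.757 and 1.16 TPM in the same order of libraries. Gfra4, the chain for persephin, was the most abundant of the other genes on the list, with 13.1 and 14.5 TPM against 14.8 and 16.3 TPM. Nrtn, which encodes neurturin, had 9.96 and 12.7 TPM against 9.81 and 9.62 TPM. Ncam1, an adhesion molecule that can also bind GDNF, had 6.47 and 4.73 TPM against 5.83 and 7.43 TPM. Gfra1 thus exceeded each of the other 3 GFRA chains in every library, and Gfral, the receptor chain for Gdf15, was listed at 0 in all 4.

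**Figure D2:**
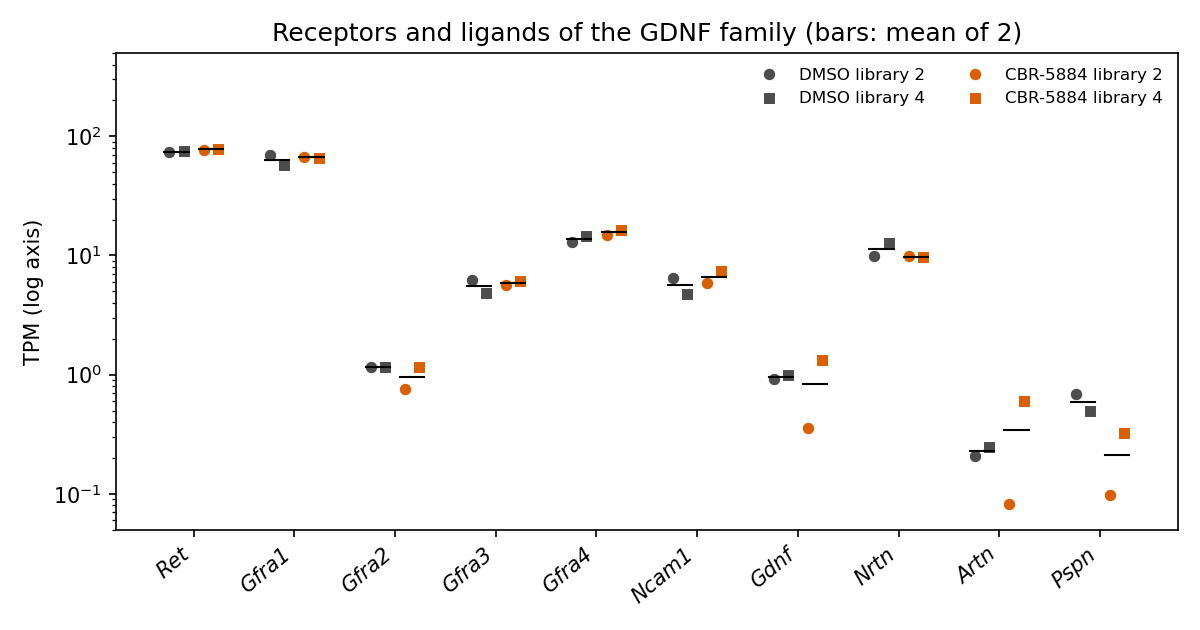
TPM (log axis) of the GDNF receptor chains, the other GFRA chains, Ncam1 and the 4 ligands in each library; symbols as in the plot of the 10 genes. Ret and Gfra1 lie near 70 TPM, while Gdnf, Artn and Pspn lie at or below 1.32 TPM.

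Signal transducers of Ret gave no call. Of 31 adaptors, Src family kinases, Ras and ERK pathway members and PI3K and AKT genes, 31 were tested, and 0 passed the test or had an unadjusted p under 0.05 (limma). Their median log2 fold change was −0.03, with 10 positive and 21 negative and a range of −0.28 to 0.23. The 95% intervals reached from 0.18 to 1.23 to either side of the estimate, the widest being that of Lyn, a Src family kinase at a mean of 1.16 TPM, named after its values were seen. Map2k2, a kinase that activates ERK, had 175.9 and 180.2 TPM with DMSO and 184.2 and 165.3 TPM with CBR-5884. The groups overlapped.

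Among the transcription factors, Etv5, Bcl6b and Lhx1 shared the direction of the step between libraries within each condition, and their treatment groups overlapped. Each was lower in DMSO library 4 than in DMSO library 2 and, within CBR-5884, higher in library 4 than in library 2. Etv5, an ETS factor required for stem cell maintenance (chromosome 16, 22381309 to 22439719, minus strand), had 83.9 and 59.6 TPM with DMSO and 64.9 and 74.6 TPM with CBR-5884. The DMSO values enclosed the CBR-5884 values, and the log2 fold change was −0.02 (SE 0.17; 95% interval −0.44 to 0.39; limma adjusted p = 0.998). Leaving out DMSO library 2 made it 0.22, leaving out DMSO library 4 made it −0.27, and with equal library totals it was 0.00. Bcl6b, a zinc finger repressor (chromosome 11, 70224128 to 70229798, minus strand), had 71.6 and 54.4 TPM against 66.8 and 76.1 TPM. These groups overlapped too, with a log2 fold change of 0.19 (SE 0.15; 95% interval −0.17 to 0.55; limma adjusted p = 0.998), which was −0.01 without DMSO library 4. Leaving out DMSO library 2 made it 0.38, at an unadjusted p of 0.0290 and an adjusted p of 0.704 (limma). Lhx1, a LIM homeodomain factor (chromosome 11, 84518284 to 84525535, minus strand), had 15.7 and 9.64 TPM against 12.5 and 16.4 TPM. Its log2 fold change was 0.20, with the widest interval of the 9 (SE 0.26; −0.43 to 0.83; limma adjusted p = 0.998), with −0.13 when DMSO library 4 was left out and 0.53 when DMSO library 2 was.

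Etv5, Bcl6b and Lhx1 were grouped by the direction of their steps between libraries after the values were seen. The steps below are therefore a description only. The library-to-library steps of these 3 genes were large within DMSO beside those of most genes. On the log2(TPM + 1) scale, DMSO library 4 minus library 2 was −0.49 for Etv5, −0.39 for Bcl6b and −0.65 for Lhx1. Over the 9538 genes with a mean of at least 10 TPM the median size of that difference was 0.12, and the 90th percentile was 0.37. Within CBR-5884 the same difference was 0.20, 0.18 and 0.36, against a median size of 0.12 and a 90th percentile of 0.33. Sertoli cell markers also differed between the DMSO libraries: their 10 genes summed to 162 TPM in DMSO library 2 and 90.2 TPM in library 4, and 8 of 10 were lower in library 4. In the CBR-5884 libraries they summed to 134 TPM in library 2 and 115 TPM in library 4, with 9 of 10 lower in library 4, where Etv5, Bcl6b and Lhx1 were the higher. Etv5 is known to be expressed in Sertoli cells as well as in germ cells, and the part of such cells in these steps was not tested. In bulk RNA, fewer cells of a type and less RNA per cell cannot be told apart.

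**Figure D3:**
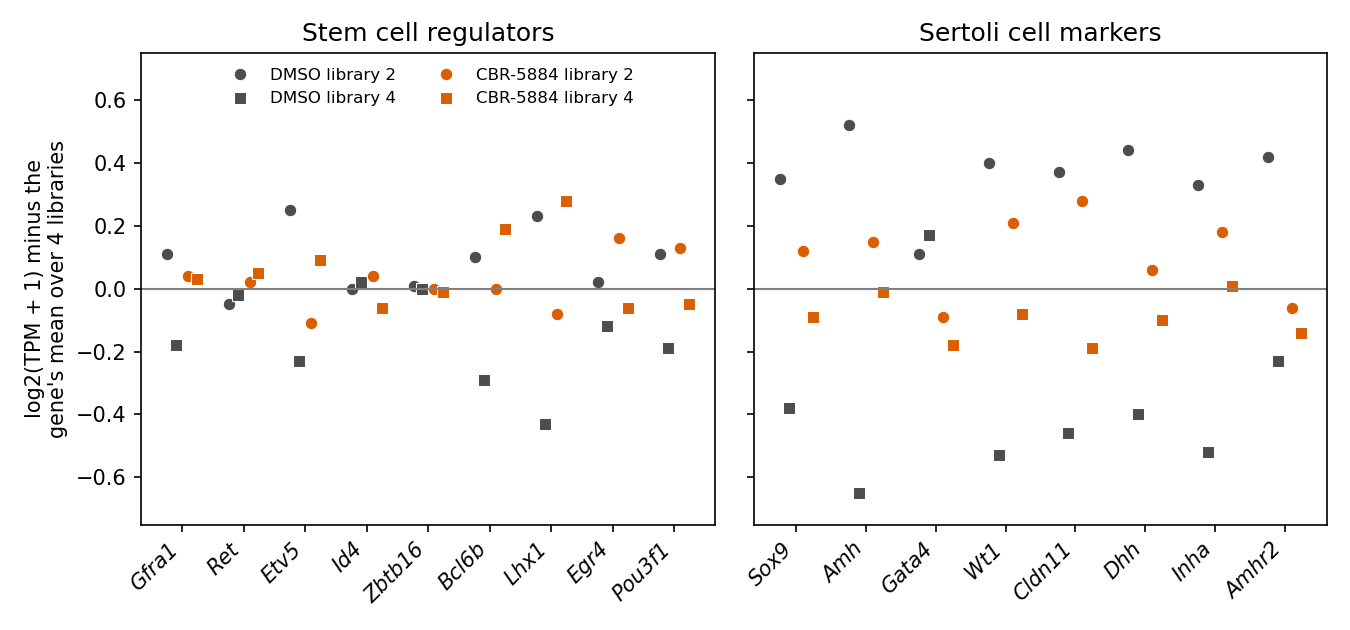
log2(TPM + 1) of each library minus the gene's mean over the 4 libraries, for the 9 tested regulators (left) and the 8 Sertoli markers with a mean of at least 1 TPM (right). DMSO library 4 (grey squares) is the lowest for 6 of the 9 regulators; CBR-5884 library 4 (orange squares) is the higher of its pair for Lhx1, Bcl6b and Etv5 and the lower of its pair for all 8 Sertoli markers shown.

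Promoter sequence is shown for 4 genes: Etv5 and Lhx1, whose step between the DMSO libraries was larger than that of 95.1% and 97.8% of genes at 10 TPM or more; Egr4, the most abundant, at 54.6%; and Id4, at 7.19%. RefSeq windows on GRCm38.p6 matched 6 of the 10 genes (7 windows, Etv5 having 2 starts); Ret, Zbtb16, Bcl6b and Pou3f1 had no entry. Each line gives the 250 bases before a start, 5′ to 3′ on the gene's strand, with capitals for matches on either strand to any of 4 motifs. The CCAAT box was searched by the letters in its name. The cAMP response element was searched by its core letters TGACG. Sites of ETS factors such as Etv5 were searched by the letters CCGGAA, and promoters of the TATA type by the letters TATAA. No match overlapped another in the windows shown.
Etv5, chr16:22438369-22438618, minus strand: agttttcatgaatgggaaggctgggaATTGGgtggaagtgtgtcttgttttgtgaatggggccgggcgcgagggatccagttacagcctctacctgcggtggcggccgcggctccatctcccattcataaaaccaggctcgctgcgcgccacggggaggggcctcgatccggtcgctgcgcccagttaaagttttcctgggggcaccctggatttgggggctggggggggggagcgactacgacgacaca
Lhx1, chr11:84525535-84525784, minus strand: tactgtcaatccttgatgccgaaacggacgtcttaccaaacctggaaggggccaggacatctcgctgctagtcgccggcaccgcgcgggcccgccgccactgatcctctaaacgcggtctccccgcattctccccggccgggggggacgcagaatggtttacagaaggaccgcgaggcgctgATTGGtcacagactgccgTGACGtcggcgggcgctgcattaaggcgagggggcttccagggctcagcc
Egr4, chr6:85513590-85513839, minus strand: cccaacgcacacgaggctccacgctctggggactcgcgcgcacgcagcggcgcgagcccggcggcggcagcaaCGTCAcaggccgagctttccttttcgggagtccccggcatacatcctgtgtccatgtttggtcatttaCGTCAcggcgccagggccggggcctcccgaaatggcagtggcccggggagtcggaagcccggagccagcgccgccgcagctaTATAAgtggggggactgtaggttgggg
Id4, chr13:48260866-48261115, plus strand: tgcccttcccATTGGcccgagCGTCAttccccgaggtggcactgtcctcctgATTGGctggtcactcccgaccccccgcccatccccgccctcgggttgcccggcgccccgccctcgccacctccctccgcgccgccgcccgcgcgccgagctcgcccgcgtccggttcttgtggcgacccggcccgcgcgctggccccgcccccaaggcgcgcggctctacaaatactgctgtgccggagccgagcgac
The Etv5 window shown held 1 CCAAT match, at 224 bases before the start, and none of the other motifs. Lhx1 held 1 CCAAT match at 68 bases and 1 cAMP response core at 50 bases. Egr4 held 2 cAMP response cores, at 177 and 109 bases, and 1 TATA match at 27 bases. Id4 held 2 CCAAT matches, at 240 and 198 bases, and 1 cAMP response core at 229 bases. Over all 32841 windows of this length, 33.9% held the CCAAT box, 17.8% the cAMP response core, 12.0% the ETS site and 22.8% the TATA box. Windows of Gfra1 and of the other Etv5 start lie partly in exons that GENCODE M21 gives as untranslated and are not printed. Gfra1, whose step between the DMSO libraries exceeded that of 83.1% of genes, held the 1 ETS match among all 7 windows, at 156 bases, and 1 CCAAT match at 73 bases. The other Etv5 start had 3 CCAAT matches, at 237, 142 and 110 bases, and Eomes, also not printed, had 2, at 127 and 84 bases, and 1 TATA match at 28 bases. The letters are a description of these windows and show no bound site.

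Egr4 and Pou3f1, both genes of undifferentiated spermatogonia, also had their lowest value in DMSO library 4. Egr4, a zinc finger factor of the early growth response family (chromosome 6, 85511121 to 85513589, minus strand), had 117.4 and 106.5 TPM with DMSO and 129.1 and 111.1 TPM with CBR-5884. The groups overlapped, with a log2 fold change of 0.10 (SE 0.10; 95% interval −0.15 to 0.35; limma adjusted p = 0.998), or −0.01 when CBR-5884 library 2 was left out and 0.21 when CBR-5884 library 4 was. Pou3f1, a POU domain factor (chromosome 4, 124656807 to 124660655, plus strand), had 27.8 and 22.3 TPM against 28.1 and 24.8 TPM. Library 2 was the higher of both pairs, and the log2 fold change was 0.08 (SE 0.15; 95% interval −0.28 to 0.45; limma adjusted p = 0.998), or −0.07 when DMSO library 4 was left out and 0.23 when DMSO library 2 was. Each has 1 transcript in the table, so the value of a single read could be used to estimate 4248 to 6462 reads a library for Egr4 and 1611 to 2551 for Pou3f1. Counting error alone would then be at most 1.53% and 2.49% (1 SD), while the coefficients of variation within DMSO were 6.92% and 15.4%.

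Id4 and Zbtb16, which mark stem and undifferentiated spermatogonia, were steady over all 4 libraries. Id4, an inhibitor of basic helix-loop-helix factors (chromosome 13, 48261228 to 48266026, plus strand), had 23.6 and 23.9 TPM with DMSO and 24.3 and 22.6 TPM with CBR-5884. The log2 fold change was −0.02 (SE 0.12; 95% interval −0.30 to 0.27; limma adjusted p = 0.998), from an estimated 1724 to 2198 reads a library. Counting error alone would be at most 2.41% (1 SD) for Id4. Its coefficient of variation was below that within DMSO, at 0.835%, and above it within CBR-5884, at 5.04%. Zbtb16, a zinc finger repressor also called PLZF (chromosome 9, 48654297 to 48836222, minus strand), had 102.1 and 101.3 TPM against 101.2 and 100.2 TPM. Its groups did not overlap, but their nearest values were 101.3 and 101.2 TPM. The log2 fold change was −0.01, with the narrowest interval of the 9 (SE 0.07; −0.20 to 0.17; limma adjusted p = 0.998). Both signs depended on the scaling of libraries: with equal library totals the fold changes were 0.01 for Id4 and 0.01 for Zbtb16.

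Eomes, a T-box factor that marks a small subset of stem cells in the adult testis (chromosome 9, 118478212 to 118486132, plus strand), was under the filter of 1 TPM in every library. It had 0.732 and 0.566 TPM with DMSO and 0.917 and 0.902 TPM with CBR-5884, so both treated libraries were the higher ones. With no filter on low values its log2 fold change was 0.21 (limma adjusted p = 0.951). A change of this size on log2(TPM + 1) at such a level was not separable from the spread between libraries.

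Across the 9 tested genes the median log2 fold change was 0.07, with 6 positive and 3 negative and a range of −0.02 to 0.20, against a median of −0.01 over all genes tested. All 9 of the 95% intervals included 0. For 8 of the genes the interval lay within 0.737-fold and 1.46-fold of the DMSO level on the TPM + 1 scale, and for Lhx1 it reached from 0.742-fold to 1.77-fold. Larger changes than these are therefore outside the intervals of these libraries, while smaller ones cannot be told from none. Leaving out DMSO library 2 raised the median to 0.21, and leaving out DMSO library 4 brought it to −0.02. Of the 10 genes, 7 had their lowest value in DMSO library 4 (Gfra1, Etv5, Bcl6b, Lhx1, Egr4, Eomes and Pou3f1), the library that was lowest for 29.1% of all genes tested.

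**Figure D4:**
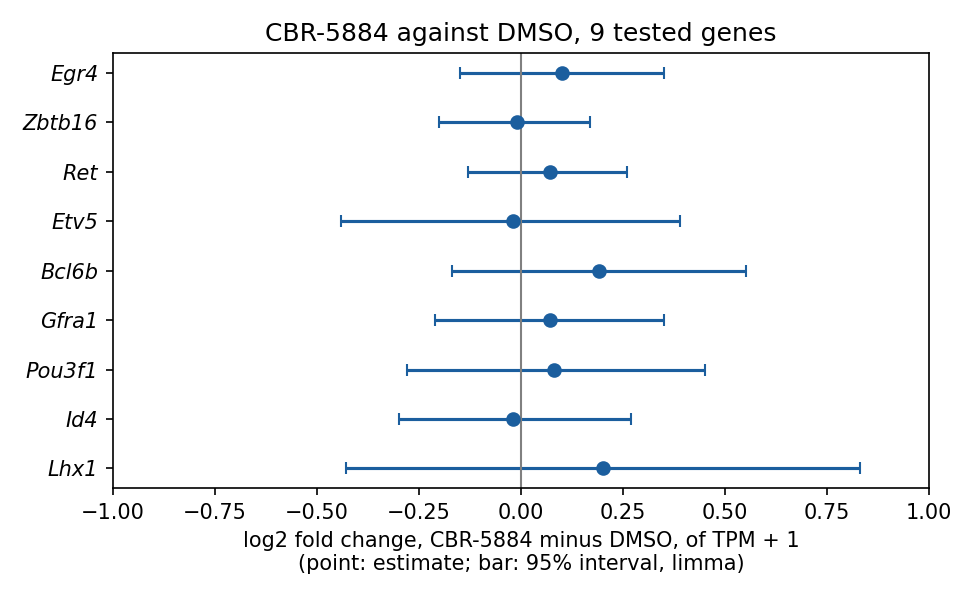
log2 fold change of TPM + 1, CBR-5884 minus DMSO, for the 9 tested genes (points) with 95% intervals from limma (bars), in order of mean level. All 9 intervals include 0; the narrowest is that of Zbtb16 (−0.20 to 0.17) and the widest that of Lhx1 (−0.43 to 0.83).

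Other genes that GDNF or ERK signalling is known to raise gave no call either. Of 22, 21 were tested and 0 passed the test or had an unadjusted p under 0.05 (limma). Groups did not overlap for 2 of the 21, against 31.3% of all genes tested. The median log2 fold change of the 21 was 0.08, with 15 positive and 6 negative. These signs rested on CBR-5884 library 4, which had the highest value for 15 of the 22 genes, against 22.7% of all genes tested, and exceeded CBR-5884 library 2 for 20. Without it, a check added after the data were seen, 9 were positive and 12 negative, with a median of −0.04; without CBR-5884 library 2, 19 were positive and 2 negative, with a median of 0.17. The sum of macrophage and blood markers was also highest in CBR-5884 library 4, although Cd68 was highest in DMSO library 4. The part of these markers in the signs above was not tested. Ccnd2, a D-type cyclin, had 147.0 and 172.4 TPM with DMSO and 136.5 and 173.7 TPM with CBR-5884. Mycn, a Myc family factor, had 66.2 and 60.1 TPM against 69.6 and 64.7 TPM. Egr1, an immediate early gene, had 71.8 and 52.2 TPM against 60.2 and 68.5 TPM. Nanos2, an RNA-binding protein that holds germ cells undifferentiated, had 3.70 and 3.20 TPM against 3.93 and 4.61 TPM. It was named after its values were seen, as 1 of the 2 genes whose groups did not overlap, the other being Egr2, with 12.2 and 11.5 against 12.2 and 13.1 TPM, whose nearest values differ only beyond the digits shown.

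**Figure D5:**
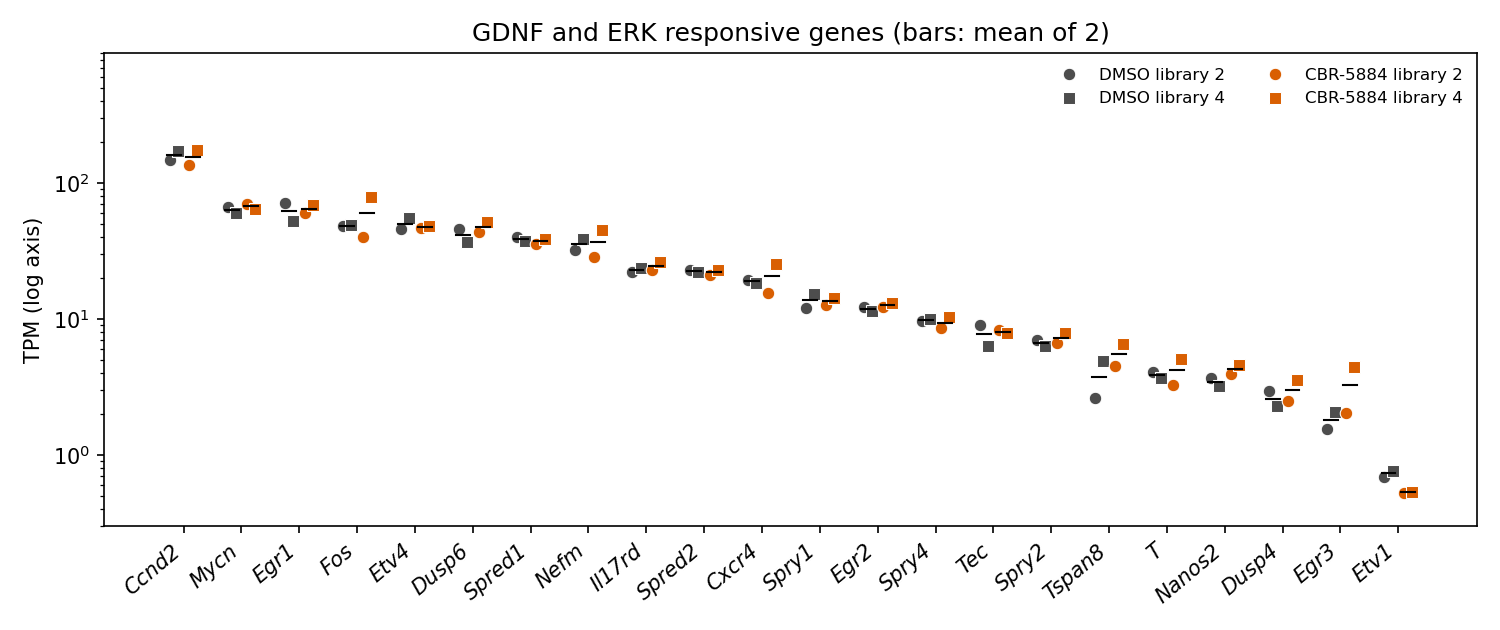
TPM (log axis) of 22 genes known to respond to GDNF or ERK signalling, in each library; symbols as in the plot of the 10 genes. CBR-5884 library 4 (orange squares) is the highest for 15 of the 22 genes, while CBR-5884 library 2 (orange circles) is the highest for 1 and the lowest for 9.

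Further regulators of stem and progenitor spermatogonia gave no call. Of 22, 21 were tested, 0 passed the test and 0 had an unadjusted p under 0.05 (limma). Their median log2 fold change was −0.05, with a range of −0.75 (Pax7) to 0.74 (Neurog3). Groups did not overlap for 7 of the 21, near the share of 31.3% over all genes tested. Kdm1a, a histone demethylase, had 176.3 and 160.2 TPM with DMSO and 172.4 and 165.8 TPM with CBR-5884. Sox3, a factor of progenitor spermatogonia, had 137.4 and 120.5 TPM against 144.9 and 110.7 TPM, and Sall4, a zinc finger factor, had 111.4 and 97.9 TPM against 108.0 and 92.5 TPM. For both genes library 2 was the higher of each pair. Receptors for fibroblast growth factor, the other main niche signal to ERK, were led by Fgfr1 at 34.3 and 35.3 TPM against 32.9 and 35.1 TPM. Fgfr3 had 11.2 and 14.1 TPM against 9.88 and 14.9 TPM, and Fgfr2 had 6.67 and 7.48 TPM against 6.40 and 10.1 TPM.

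Among the family of Id4 and the E proteins that it binds, 1 gene of 6 had an unadjusted p under 0.05 (limma). The share over all genes tested was 3.66%. At the adjusted threshold there were 0 of the 6, and the median log2 fold change was −0.06. Leaving out DMSO library 2 turned this median to 0.05, and leaving out CBR-5884 library 4 turned it to 0.03. The gene at an unadjusted p under 0.05 was Tcf4, an E protein, with 13.0 and 13.4 TPM with DMSO and 17.4 and 17.1 TPM with CBR-5884 (log2 fold change 0.36, SE 0.14; limma adjusted p = 0.998). Tcf3, the most abundant E protein, had 220.7 and 204.4 TPM against 219.7 and 200.2 TPM, and Tcf12 had 89.5 and 89.9 TPM against 76.4 and 87.9 TPM. Id4 exceeded its relatives, of which Id1 was the highest at 12.6, 10.9, 12.1 and 10.9 TPM in the same order of libraries.

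A list of 10 genes linked to spermatogonial differentiation also held genes that do not mark it, such as Kitl, which encodes the ligand of Kit. All 10 were tested, and 0 passed the test (limma; median log2 fold change −0.09, 2 positive and 8 negative). An unadjusted p under 0.05 was seen for 1, Stra8, against 3.66% of all genes tested (limma). Stra8, which retinoic acid induces, had 475.8 and 398.7 TPM with DMSO and 375.7 and 322.8 TPM with CBR-5884 (log2 fold change −0.32, 95% interval −0.61 to −0.03; limma adjusted p = 0.998). Dmrt1, a factor of spermatogonia, had 513.3 and 519.4 TPM against 507.6 and 468.8 TPM, and Sycp3, a protein of the meiotic chromosome axis, had 189.4 and 161.5 TPM against 196.2 and 191.9 TPM.

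Depth and the levels of cell type markers were checked over the whole table. The number of reads behind each was estimated at 22400000 to 28200000, and 22100 to 22988 genes were above 0. The 10 germ cell markers summed to 2482 to 2545 TPM, led by Dazl and Mael, against 90.2 to 162 TPM for 10 Sertoli, 55.4 to 71.1 for 9 peritubular and stromal, 18.7 to 59.3 for 7 macrophage and blood, 22.4 to 26.9 for 6 neural, 9.66 to 10.5 for 6 endothelial and 8.70 to 13.9 for 7 Leydig cell markers. Th, a neuronal enzyme on the neural list, was listed at 0 in all 4 libraries. The macrophage and blood sum was highest in CBR-5884 library 4, at 59.3 TPM, of which Lyz2 made up 45.5 TPM. Cd68 was instead highest in DMSO library 4, at 4.58 TPM against 2.20 TPM in CBR-5884 library 4. The haemoglobin genes Hbb-bs and Hba-a1 were listed at 0 in all 4 libraries.

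Sequence shared with other genes, which can make the assignment of reads uncertain, was small except for Etv5. The share of a gene's 31-base words that also occurs in another gene of the table was 0.00% for Gfra1, Ret, Bcl6b and Lhx1 and at most 0.44% for all others except Etv5. For Etv5 it was 30.27%, all of it with the processed pseudogene Gm4798, which the table lists at 0, 0, 0 and 0.505 TPM in DMSO libraries 2 and 4 and CBR-5884 libraries 2 and 4. The exons of Gfra1, Id4, Pou3f1 and Eomes overlap antisense or long noncoding genes of the opposite strand in GENCODE M21 that have no entry in the table. No source used here states whether counting used the strand, so RNA of those genes could add to the values.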

How the data were processed

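RNA was measured in 4 libraries of sorted mouse germ cells. The authors' tools were fastp and kallisto, on build mm10, per the submitters' processing notes, with no versions or settings given there. The deposited TPM and scaled reads per base are signal values per gene, repeated for each of its transcripts, so 1 value per gene and library was kept. The deposited TPM sum to 966761 to 1002976 per library, so the authors had rescaled them. Only 48.5 to 50.1% of low values (up to 20.5 reads) of genes with 1 transcript were whole multiples of the value of 1 read at a tolerance of 0.05, so counts were not recovered and no count test was used. Read numbers are estimates from that value.

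The comparison used limma 3.58.1 in R 4.3.3 (trended variance, two-sided) on log2(TPM + 1), without covariates, for the 14920 genes with a mean of at least 1 TPM; a fold change is on that scale and understates changes of low genes. An exact permutation test of 2 against 2 libraries cannot go below p = 0.33. The fit was also run on simulated data with independent noise and no shift of a whole library. The changes planted there were larger than those of the tested regulators, so no conclusion is drawn from it. The members and lists were chosen with earlier results of these data known. From each list the 3 most abundant genes were named, plus genes at an unadjusted p under 0.05, Gdnf, Gfra2 and the Fgfr genes (values of a few genes that this rule names are not reported here); the other list genes are given by counts and ranges. Positions are from GENCODE M21 (GRCm38, the assembly of mm10) and promoters from RefSeq. Other pseudocounts, filters, scalings and variance settings, a replicate block and leaving out each library were tried.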

Additional observations from a re-analysis of the deposited data

How the results depend on the processing

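Under all 14 alternatives 0 of the 9 tested regulators passed the threshold, and the lowest adjusted p of any of them was 0.704 (limma, Bcl6b without DMSO library 2); Eomes was tested only with no filter on low values. Over all genes 0 were called except with scaled reads per base, which called 1 (Hspa1b, lower), and with robust variance, which called 1 (higher, with no symbol in the table). Of 126 values of single regulators under the alternatives, 113 kept their direction. Filters, variance settings and the replicate block cannot change a fold change, so their values repeat the main ones. Of the 13 that changed direction, 9 came from leaving out 1 library and 4 from other settings. With equal library totals the fold change was 0.00 (positive before rounding) for Etv5, 0.01 for Id4 and 0.01 for Zbtb16, and with quantile normalization it was 0.02 for Zbtb16, all negative in the main comparison. Leaving out 1 library gave ranges of −0.07 to 0.21 for Gfra1, −0.27 to 0.22 for Etv5, −0.07 to 0.03 for Id4, −0.01 to 0.38 for Bcl6b, −0.13 to 0.53 for Lhx1, −0.01 to 0.21 for Egr4, −0.07 to 0.23 for Pou3f1, and −0.02 to 0.21 for the median of the 9. Ret (0.05 to 0.09) and Zbtb16 (−0.02 to −0.01) kept their sign. A fit with the table's library number as a replicate block called 0 genes. Such a block cannot change a fold change or the median of the 9 (0.07), because each condition has 1 library of each number. With the same numbers, deviations from the group means correlated at 0.20 across genes, which 2 pairs do not suffice to read as pairing. For a library left alone in its group, its spread is assumed to be that of the other group. Limits are the 2 libraries per condition and, for Eomes, a level under 1 TPM.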

Other observations

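The regulators of stem and progenitor spermatogonia with the 3 largest fold changes among the 21 tested were named after their values were seen. Neurog3, a factor of progenitors about to differentiate, had 4.87 and 3.24 TPM with DMSO and 10.1 and 5.23 TPM with CBR-5884 (log2 fold change 0.74, SE 0.34; limma adjusted p = 0.998). Foxc2, a forkhead factor reported in quiescent stem cells, had 10.1 and 9.77 TPM against 16.0 and 11.4 TPM (log2 fold change 0.41, SE 0.20; limma adjusted p = 0.998). Pax7, a paired box factor of rare stem cells, had 1.26 and 2.01 TPM against 0.686 and 0.419 TPM (log2 fold change −0.75, SE 0.33; limma adjusted p = 0.998). In all 3 the groups did not overlap, as for 31.3% of all genes tested. Kit, the receptor of differentiating spermatogonia, had its highest value in DMSO library 4, at 111.2 TPM, against 70.0 TPM in DMSO library 2 and 62.2 and 82.4 TPM with CBR-5884. Of the 10 genes linked to spermatogonial differentiation, 6 had their highest value in DMSO library 4, against 27.7% of all genes tested. Of these 6, Dmrt1 and Rhox13 stood only slightly above DMSO library 2, at 519.4 against 513.3 TPM and 88.5 against 87.6 TPM. The lowest value was in DMSO library 4 for 2 of the 10, Kitl and Sycp3, against 29.1% of all genes tested. Stra8, at 475.8 and 398.7 TPM, and Sycp3, at 189.4 and 161.5 TPM, were among the 4 that were lower there than in DMSO library 2.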
